A study of Rattus norvegicus with 4 samples.

Results

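The subunits of protein phosphatase 1 (PP1) and protein phosphatase 2A (PP2A), with those of the related enzymes PP4, PP5 and PP6, were followed in the hippocampus of aged rats after chronic stress. Members were all probe sets of the rat array whose platform annotation gave exactly 1 gene symbol that started with Ppp1, Ppp2, Ppp4, Ppp5 or Ppp6, or was Ppme1, Set or Cip2a. This rule used names only and found 100 probe sets of 64 genes, among 31042 non-control probe sets of which those with a single symbol covered 14217 genes. No probe set carried Set or Cip2a as its only symbol, so both PP2A inhibitor genes were not analysed here. A probe set was tested when its signal reached 100 on at least 2 arrays, which left 74 members of 55 genes and 14791 probe sets over the whole array.

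The stressed group consisted of male Wistar rats that had gone through a chronic unpredictable mild stress (CUMS) battery for 4 weeks, and the control group of unstressed male Wistar rats of the same age. Both groups were 16 months old when the hippocampus was taken under ketamine and xylazine anesthesia. Each group had 2 arrays (Affymetrix Rat Genome 230 2.0), and each array held the pooled RNA of 3 rats. The series' design calls the arrays of a group biological replicates, so p-values measure the spread between 2 pools of a group and not between single rats. The signals are from whole hippocampus, where fewer cells of a type and less RNA per cell cannot be told apart, and they report mRNA, not enzyme activity.

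PP1 and PP2A remove phosphate from serine and threonine residues and carry out most of this work in the brain. PP1 has a small family of catalytic subunits that are steered to their substrates by a large set of targeting proteins and held back by small inhibitor proteins. PP2A is a trimer of a catalytic subunit, a scaffold (A) subunit and an exchangeable regulatory (B) subunit of the B55, B56 or B'' family, and its B55-containing form is a major phosphatase of the microtubule protein tau. Both enzymes also act at synapses, where they oppose kinases during long-term depression.

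The 4 arrays had similar median signals of 80.2 and 82.3 in stressed rats and 80.9 and 79.6 in controls. Log2 signals correlated at 0.993 within the stressed pair, at 0.994 within the control pair and between 0.972 and 0.974 across groups. All 9 measured marker genes of hippocampal excitatory neurons had a tested probe set, with 4 rises and 3 falls among 15 probe sets. Other marker lists also moved between groups: 8 of 10 tested choroid plexus probe sets rose and none fell, with a summed signal of 20632 and 19334 on the stressed arrays and of 14763 and 16516 on the control arrays and no marker at 0. The choroid plexus rises of Aqp1, Cldn2 and Col8a1 passed the signal minimum only through the stressed arrays, so their direction was built into their selection. Those of Enpp2, Prlr, F5, Sostdc1 and Folr1 lay above the minimum on every array. Of 10 tested endothelial probe sets 3 rose, and their list summed to 4569.8 and 4506 in stressed rats and to 3876 and 3813 in controls. The part of these cell types in the results on phosphatase subunits was not tested.

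In stressed rats 6 phosphatase probe sets rose, 12 fell and 56 did not pass the test (limma with an intensity trend, adjusted p under 0.05 over all 14791 probe sets). The called share was 24.3% of the 74 tested members, beside 23.8% of all tested probe sets. Rises made up 8.11% of the members and 12% of all tested probe sets, and falls made up 16.2% of the members and 11.8% of all tested probe sets. The count of called subunits thus lay at the level of the array as a whole. The median log2 fold change was -0.02 over the tested members and 0.02 over all tested probe sets. At an unadjusted p under 0.05, 13 of the 74 members were higher and 17 lower, beside 20.4% higher and 17.6% lower of all tested probe sets. The counts depended on each array: 3 rose and 9 fell without stressed 1, 3 rose and 10 fell without stressed 2, 2 rose and 4 fell without control 1, and 3 rose and 3 fell without control 2. The share called over the whole array was smaller in the same fits, at 7.76% rises and 9.07% falls without stressed 1, 7.67% and 8.88% without stressed 2, 5.52% and 6.15% without control 1, and 4.39% and 5.35% without control 2.

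The changes were small. Among the 18 called members 16 differed by less than 1.5-fold. No tested member reached the study's 2-fold threshold, which 1.60% of all tested probe sets passed together with a limma unadjusted p under 0.05. The signals of the stressed and control arrays did not overlap for 51 of the 74 members (68.9%), 25 of them higher and 26 lower in stressed rats, beside 64.4% of all tested probe sets. The methods' t-test, with Benjamini-Hochberg adjustment, called none of the members and 0.122% of all tested probe sets. At its unadjusted threshold it gave 6 members higher and 13 lower, beside 12.6% higher and 12% lower of all tested probe sets.

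**Figure D1:**
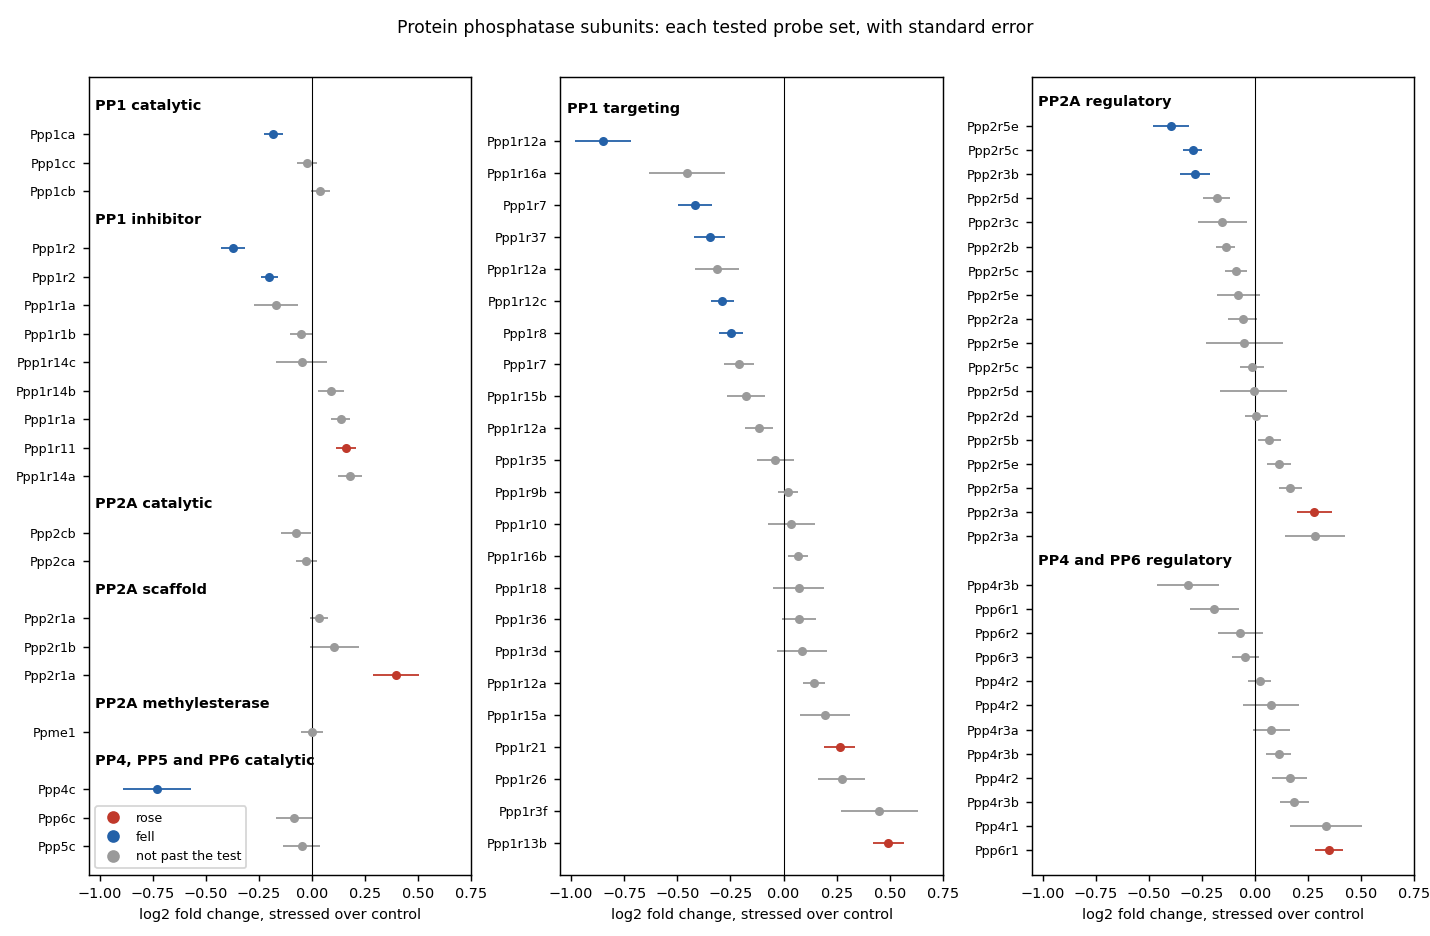
Log2 fold change of stressed over control rats (horizontal axis) for each of the 74 tested probe sets, grouped by the role of the protein and labelled by gene; points are limma estimates and lines their standard errors. Red marks the 6 probe sets that rose, blue the 12 that fell and grey the 56 not past the test, and the points run from -0.85 for a probe set of Ppp1r12a to 0.49 for Ppp1r13b.

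Catalytic and regulatory subunits were counted apart. Of 8 tested catalytic probe sets, 1 for each of 8 genes, 2 fell and none rose, with a median log2 fold change of -0.06. The falls were those of Ppp1ca, whose call was lost in each fit without 1 array, and of Ppp4c, which reached the signal minimum only on the control arrays. Without stressed 1, control 1 or control 2 no catalytic probe set was called, and without stressed 2 only 1 fell. Of 66 tested probe sets for inhibitors, targeting proteins, scaffolds, regulatory subunits and the methylesterase, 6 rose and 10 fell, with a median of 0.00. The called share was 25.0% of the catalytic probe sets and 24.2% of these 66, near the 23.8% of all tested probe sets. Among these 66, 3 rose and 9 fell without stressed 1 as well as without stressed 2, 2 rose and 4 fell without control 1, and 3 rose and 3 fell without control 2. By complex, 3 of 35 PP1 probe sets rose and 8 fell, 2 of 24 PP2A probe sets rose and 3 fell, and 1 of 15 PP4, PP5 and PP6 probe sets rose and 1 fell. Differences between these classes were not tested.

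**Figure D2:**
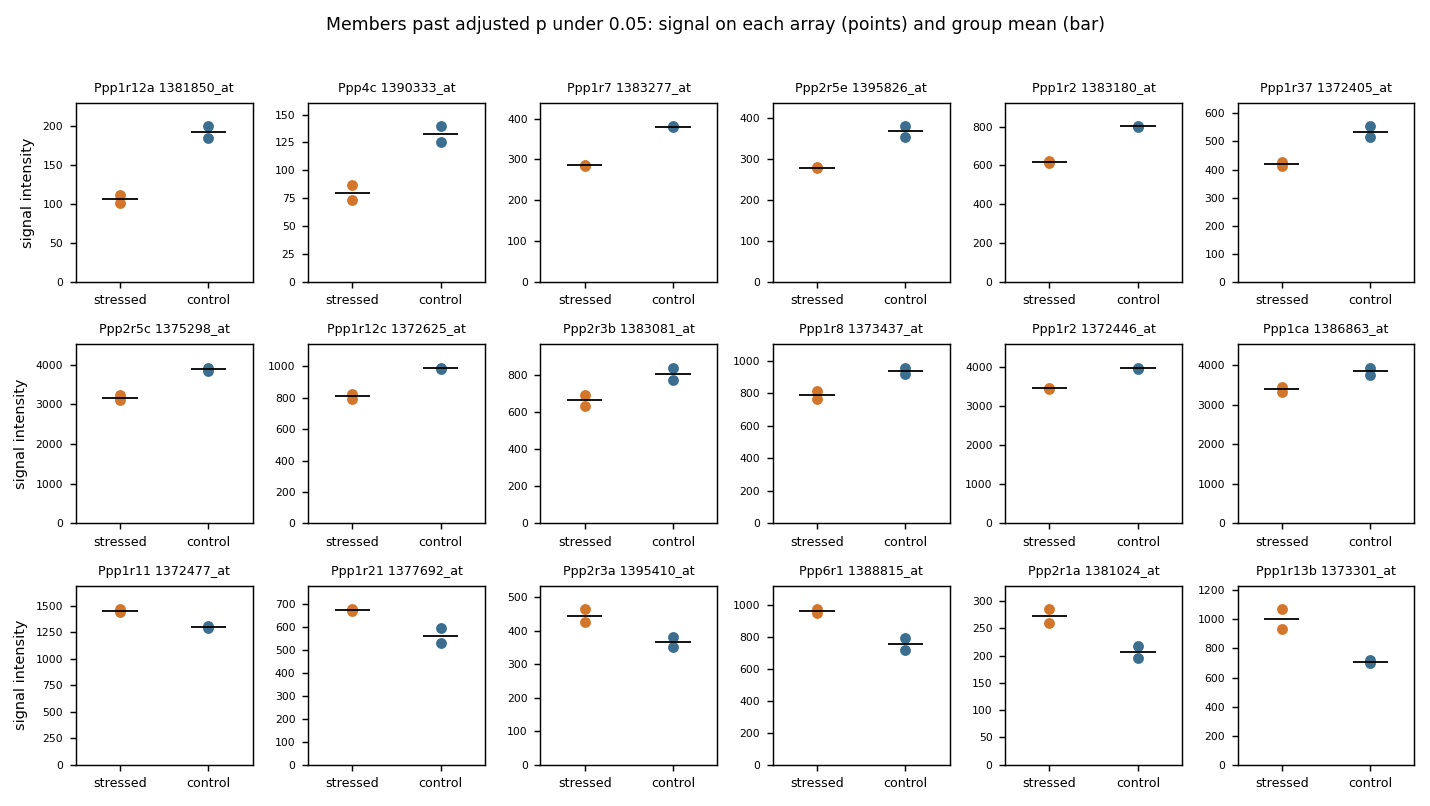
Signal intensity on the vertical axis, which starts at 0 in each panel, for the 18 called probe sets on the 2 stressed and the 2 control arrays; points are arrays and bars group means. In the 12 panels of the upper 2 rows both stressed arrays lie below both control arrays, and in the 6 panels of the lowest row both lie above them.

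Only 4 of the 18 calls held in every limma setting tried in which the probe set was tested, including each fit without 1 array: a probe set each of Ppp1r2, Ppp1r12a, Ppp1r13b and Ppp2r5c. Another 4, of Ppp1ca, Ppp1r11, Ppp1r2 and Ppp2r3a, were lost in each of the 4 fits that left out 1 array. The promoters of the 4 genes with a lasting call are printed to show what sequence these genes have at their start. Each is the RefSeq window on the GRCr8 assembly, 250 bases before to 50 bases after the gene's start, read in the direction of the gene. Capitals mark GC boxes (GGGCGG on either strand, overlapping matches counted apart) and CCAAT boxes (CCAAT on either strand).
Ppp1r2, chr11:82977384-82977683, plus strand: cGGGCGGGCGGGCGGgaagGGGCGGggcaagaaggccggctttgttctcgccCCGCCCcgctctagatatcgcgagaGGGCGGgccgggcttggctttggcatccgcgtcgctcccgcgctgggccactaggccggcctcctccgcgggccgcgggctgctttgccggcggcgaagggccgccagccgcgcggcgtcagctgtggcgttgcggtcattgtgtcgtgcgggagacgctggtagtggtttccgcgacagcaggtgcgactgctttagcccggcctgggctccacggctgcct
Ppp1r12a, chr7:45369194-45369493, plus strand: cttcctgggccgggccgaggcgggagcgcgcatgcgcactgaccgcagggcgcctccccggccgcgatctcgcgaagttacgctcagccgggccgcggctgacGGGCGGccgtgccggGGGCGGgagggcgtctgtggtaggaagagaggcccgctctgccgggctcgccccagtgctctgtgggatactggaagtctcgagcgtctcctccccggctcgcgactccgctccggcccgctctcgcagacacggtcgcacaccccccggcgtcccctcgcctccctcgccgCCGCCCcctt
Ppp1r13b, chr6:136783927-136784226, minus strand: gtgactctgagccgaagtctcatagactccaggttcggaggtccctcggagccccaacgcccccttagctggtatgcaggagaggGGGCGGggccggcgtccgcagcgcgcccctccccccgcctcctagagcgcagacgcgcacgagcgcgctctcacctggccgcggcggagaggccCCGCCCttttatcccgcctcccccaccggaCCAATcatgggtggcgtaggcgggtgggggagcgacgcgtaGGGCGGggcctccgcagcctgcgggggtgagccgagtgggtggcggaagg
Ppp2r5c, chr6:135323846-135324145, plus strand: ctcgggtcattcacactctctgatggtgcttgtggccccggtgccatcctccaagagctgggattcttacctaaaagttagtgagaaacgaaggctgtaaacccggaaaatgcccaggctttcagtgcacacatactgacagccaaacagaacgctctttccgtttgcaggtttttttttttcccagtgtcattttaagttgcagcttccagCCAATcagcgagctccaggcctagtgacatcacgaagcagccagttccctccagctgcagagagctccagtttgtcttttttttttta
The Ppp1r2 window held 6 GC boxes at a GC content of 73.3%, the Ppp1r12a window 3 at 75.7% and the Ppp1r13b window 3 at 72.7%, with 1 CCAAT box in the last. The Ppp2r5c window held no GC box and 1 CCAAT box at a GC content of 48.7%. No box was shared by all 3 genes with a probe set that fell, and the gene that rose held both kinds. Over the 53 of 64 member genes with a promoter window, 62.3% had a GC box, against 33.1% of all 33469 promoters. Their median GC content was 63.3%, against 51.7% over all promoters. Members gave 1 window a gene, while all promoters counted every window, with no matching for gene type or GC content. CCAAT occurred in 37.7% of member promoters and 37.5% of all promoters, and the cyclic AMP response element TGACGTCA in 7.55% of member promoters and 1.83% of all promoters. The palindromic glucocorticoid response element was in none of the 53 windows and in 0.0149% of all windows. A match is a run of letters and not a site shown to be bound.

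The catalytic subunits of PP1 differed little between groups. Ppp1ca, which encodes the alpha catalytic subunit, had 3450 and 3332 on the stressed arrays and 3759 and 3937 on the control arrays. Both stressed arrays were lower, and the log2 fold change of -0.18 (SE 0.05) passed the test at an adjusted p of 0.0270. This call was lost in each fit that left out 1 array, where the adjusted p ran between 0.0600 and 0.155. Ppp1cb, the beta catalytic subunit and partner of the myosin phosphatase targeting proteins, had 2663 and 2675 in stressed rats and 2651 and 2549.8 in controls (log2 fold change 0.04, 95% interval -0.07 to 0.14, adjusted p = 0.573). Ppp1cc, the gamma subunit found in dendritic spines, had 5713 and 5414 in stressed rats and 5581 and 5724 in controls. The groups overlapped, and the log2 fold change was -0.02 (95% interval -0.13 to 0.09, adjusted p = 0.753).

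Among PP1 inhibitors 1 of 9 tested probe sets rose and 2 fell (33.3% called, beside 23.8% of all tested probe sets). Their median log2 fold change was -0.05. Both probe sets that fell belonged to Ppp1r2, inhibitor-2, which binds the PP1 catalytic subunit directly and is itself controlled by phosphorylation. Its probe set 1383180_at had 625.3 and 613.6 on the stressed arrays and 799.9 and 802.0 on the control arrays. The arrays within a group lay close together and the groups were clearly apart, with a log2 fold change of -0.37 (SE 0.06, adjusted p = 0.00363). Leaving out 1 array gave -0.38 to -0.36 and adjusted p between 0.0101 and 0.0360. The second probe set, 1372446_at, had 3474 and 3446 in stressed rats and 3989 and 3967 in controls (log2 fold change -0.20, SE 0.04, adjusted p = 0.0122), and its adjusted p ran from 0.0519 to 0.0707 without 1 array. Another probe set for inhibitor-2 was too dim to be tested, at 66.5 and 68.0 in stressed rats and 87.7 and 72.1 in controls.

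Ppp1r11, inhibitor-3, was the inhibitor that rose. Its signals were 1442 and 1470.0 on the stressed arrays and 1291 and 1313 on the control arrays, a log2 fold change of 0.16 (SE 0.05, adjusted p = 0.0422). Both stressed arrays were higher, yet the call was lost in each fit without 1 array (adjusted p 0.0979 to 0.156) and after median centring of the arrays. Ppp1r14a, CPI-17, an inhibitor of myosin phosphatase that is prominent in smooth muscle, had 823.7 and 809.6 in stressed rats and 734.1 and 709.2 in controls and stayed just outside the threshold (log2 fold change 0.18, adjusted p = 0.0535). The list of mural and smooth muscle markers summed to 1099 and 1088 in stressed rats and to 1088 and 1212 in controls. It had 1 rise and 1 fall among 6 tested probe sets (33.3%, beside 23.8% of all tested probe sets). The rise, of Pdgfrb, passed the signal minimum only through the stressed arrays, so its direction was built into its selection. The oligodendrocyte list had 3 rises and 4 falls among 16 (43.8%). Which cells gave the Ppp1r14a signal was not tested.

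The inhibitors that respond to cyclic AMP did not pass the test. Ppp1r1b encodes DARPP-32, which is known as the dopamine-regulated PP1 inhibitor of striatal neurons, and had 1013 and 999.5 in stressed rats and 1058 and 1027 in controls (log2 fold change -0.05, 95% interval -0.17 to 0.07, adjusted p = 0.497). Of the striatal markers measured with it 2 of 4 tested probe sets fell, beside 11.8% of all tested probe sets. These falls were of Penk (log2 fold change -0.42) and Pde10a (log2 fold change -0.29). A second Pde10a probe set stood at -0.57 and Rgs9 at 0.10, and neither passed (adjusted p = 0.0528 and 0.681). The receptor genes Drd1 and Drd2 were too dim to be tested, as were Adora2a, Tac1 and Gpr6. Drd1 had 89.8 and 116.3 in stressed rats and 77.7 and 86.9 in controls at its brighter probe set. Drd2 had 50.9 and 47.2 in stressed rats and 43.4 and 51.3 in controls. Ppp1r1a, inhibitor-1, which neurons use to hold PP1 back while protein kinase A is active, was read by a pair of probe sets at log2 fold changes of 0.13 (adjusted p = 0.0735) and -0.17 (adjusted p = 0.278). Their difference did not pass the pair test described below (adjusted p = 0.123). Ppp1r14b (PHI-1) stood at a log2 fold change of 0.09 and Ppp1r14c (KEPI) at -0.05, with adjusted p of 0.313 and 0.800.

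PP1 targeting proteins formed the largest class, with 23 tested probe sets of which 2 rose and 5 fell. Calls made up 30.4% of the class, beside 23.8% of all tested probe sets, and its median log2 fold change was 0.02. The rise with the smallest p among all members was that of Ppp1r13b, which encodes ASPP1, a partner of PP1 and of p53. Its signals were 933.0 and 1071 on the stressed arrays and 700.6 and 719.9 on the control arrays. The lower stressed array still exceeded the higher control array, and the log2 fold change was 0.49 (SE 0.07, adjusted p = 0.00342), with 0.39 to 0.59 when 1 array was left out (adjusted p 0.00113 to 0.0364). Ppp1r13l, which encodes the related iASPP, lay just below the signal minimum at 97.8 and 68.5 in stressed rats and 77.3 and 58.5 in controls and was not tested.

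The myosin phosphatase targeting family (MYPT) contributed 7 tested probe sets of 4 genes, of which 2 fell and none rose. Calls made up 28.6% of them, beside 23.8% of all tested probe sets. Ppp1r12a encodes MYPT1, the subunit that directs the beta catalytic subunit to myosin light chain and other substrates. Its probe set 1381850_at had 111.4 and 100.8 on the stressed arrays and 199.1 and 183.7 on the control arrays. The stressed signals lay close to the minimum for testing and far below both controls, and the log2 fold change of -0.85 (SE 0.13, adjusted p = 0.00391) held in all 4 fits without 1 array (-0.92 to -0.78, adjusted p 0.00694 to 0.0427). The 3 other probe sets for Ppp1r12a did not pass the test, as described with the other genes read by several probe sets.

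Ppp1r12c, MBS85, a further member of the family, had 823.7 and 794.7 in stressed rats and 991.8 and 984.5 in controls. This log2 fold change of -0.29 (SE 0.05, adjusted p = 0.00787) was lost without control 1 (adjusted p = 0.0525) and without control 2 (adjusted p = 0.0528), and the smallest over the 4 fits was 0.0177. Ppp1r16a, MYPT3, varied within the groups, with 314.8 and 216.1 in stressed rats and 321.2 and 398.5 in controls, and its log2 fold change of -0.46 did not pass (adjusted p = 0.104). Ppp1r16b, TIMAP, which is known from endothelial cells, stood at a log2 fold change of 0.07 (adjusted p = 0.346).

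The remaining called targeting proteins were named after their values were seen. Ppp1r7, SDS22, which is needed for the assembly of active PP1, fell at 1 of its probe sets, with 287.0 and 283.3 on the stressed arrays and 381.3 and 379.9 on the control arrays (1383277_at, log2 fold change -0.42, SE 0.08, adjusted p = 0.00928). It was lost without control 1 and without control 2, over a range of adjusted p from 0.0257 to 0.0604. Its other probe set stood at -0.21 (adjusted p = 0.0678). Ppp1r8, NIPP1, a nuclear PP1 regulator tied to splicing, had 767.5 and 815.3 in stressed rats and 921.4 and 957.4 in controls (log2 fold change -0.25, SE 0.06, adjusted p = 0.0199). This call survived only without stressed 2, with adjusted p between 0.0265 and 0.117 over the 4 fits. Ppp1r10, PNUTS, another nuclear targeting subunit, stood at 0.04 (adjusted p = 0.843).

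Ppp1r37 had 428.2 and 411.0 in stressed rats and 514.3 and 554.1 in controls, with a log2 fold change of -0.35 (SE 0.07, adjusted p = 0.0132). Without control 2 its adjusted p was 0.0943, and the smallest over the 4 fits was 0.0264. Ppp1r21, a subunit of the FERRY complex that links mRNAs to early endosomes, had 670.8 and 679.5 in stressed rats and 529.8 and 596.1 in controls, a log2 fold change of 0.26 (SE 0.07, adjusted p = 0.0357). The spread came from the control arrays, and the call held only without control 2 (adjusted p 0.0437 to 0.163 over the 4 fits).

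Several other targeting subunits with a known role did not pass the test. Ppp1r9b, spinophilin, which anchors PP1 in dendritic spines, had 2016 and 1931 in stressed rats and 1914 and 1976 in controls (log2 fold change 0.02, 95% interval -0.09 to 0.13, adjusted p = 0.783). Ppp1r15a (GADD34) and Ppp1r15b (CReP) direct PP1 to the translation factor eIF2-alpha. Ppp1r15a, the inducible one, had 198.2 and 177.9 in stressed rats and 165.0 and 163.2 in controls (log2 fold change 0.19, adjusted p = 0.267), and Ppp1r15b stood at -0.17 (adjusted p = 0.197). The glycogen targeting subunits Ppp1r3d and Ppp1r3f stood at 0.09 and 0.45 with adjusted p of 0.623 and 0.109.

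Neither PP2A catalytic subunit passed the test. Ppp2ca, the alpha catalytic subunit, had 1759 and 1748 on the stressed arrays and 1743 and 1831 on the control arrays (log2 fold change -0.03, 95% interval -0.14 to 0.08, adjusted p = 0.718). Ppp2cb, the beta catalytic subunit, had 4631 and 4362 in stressed rats and 4414 and 5095 in controls, and the control arrays spanned the stressed ones (log2 fold change -0.08, 95% interval -0.24 to 0.09, adjusted p = 0.460). Ppme1, the methylesterase that removes the carboxy-terminal methyl group of the PP2A catalytic subunit, had 2642 and 2511 in stressed rats and 2505 and 2651 in controls (95% interval of the log2 fold change -0.12 to 0.12, adjusted p = 0.991).

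Of 3 tested scaffold probe sets 1 rose (33.3% called, beside 23.8% of all tested probe sets). Ppp2r1a, the alpha scaffold, was higher at 1381024_at, with 259.1 and 285.0 in stressed rats and 217.3 and 196.4 in controls (log2 fold change 0.40, SE 0.11, adjusted p = 0.0340). That call held only without stressed 1 (adjusted p 0.0496 to 0.162 over the 4 fits). The other Ppp2r1a probe set, 1375245_at, had 2439.7 and 2476 in stressed rats and 2385 and 2423 in controls, a log2 fold change of 0.03 (95% interval -0.07 to 0.13). Ppp2r1b, the beta scaffold, had 248.9 and 245.9 in stressed rats and 210.5 and 251.9 in controls (log2 fold change 0.10, adjusted p = 0.552).

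Among 18 tested probe sets for PP2A regulatory subunits 1 rose and 3 fell, with a median log2 fold change of -0.05. The called share was 22.2%, beside 23.8% of all tested probe sets. The B55 family, which carries the activity on tau, had 3 tested probe sets and no call. Ppp2r2b, the neuronal B55 beta, came closest, with 2337 and 2269.7 in stressed rats and 2484 and 2586 in controls (log2 fold change -0.14, SE 0.05, adjusted p = 0.0648). Both of its stressed arrays were lower, and its 95% interval of -0.25 to -0.03 was not adjusted for the number of probe sets. Ppp2r2a, B55 alpha, stood at -0.06 (95% interval -0.22 to 0.10, adjusted p = 0.579) and Ppp2r2d, B55 delta, at 0.01 (95% interval -0.12 to 0.14, adjusted p = 0.942).

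The B56 family had 11 tested probe sets, of which 2 fell and none rose (18.2% called, beside 23.8% of all tested probe sets). Ppp2r5c, B56 gamma, which directs PP2A to nuclear and checkpoint substrates, had 3238 and 3100.3 on the stressed arrays and 3846 and 3922 on the control arrays at 1375298_at. The groups were far apart relative to their spread, with a log2 fold change of -0.29 (SE 0.05, adjusted p = 0.00381) that ran from -0.33 to -0.26 when 1 array was left out (adjusted p 0.00981 to 0.0421). The other tested Ppp2r5c probe sets, 1373384_at and 1392498_at, stood at -0.09 and -0.01 and did not pass (adjusted p = 0.261 and 0.888). Ppp2r5e, B56 epsilon, fell at 1395826_at, with 280.2 and 276.6 in stressed rats and 379.1 and 353.7 in controls (log2 fold change -0.40, SE 0.09, adjusted p = 0.0142). It was lost without control 1 and without control 2 (adjusted p 0.0381 to 0.0893 over the 4 fits). Ppp2r5a, B56 alpha, had 1373 and 1317 in stressed rats and 1163 and 1235 in controls and did not pass (log2 fold change 0.17, adjusted p = 0.0590), nor did Ppp2r5d, B56 delta, at -0.18 (adjusted p = 0.0723) and -0.01 (adjusted p = 0.979), or Ppp2r5b, B56 beta, at 0.07 (adjusted p = 0.417).

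The calcium-binding B'' family had 4 tested probe sets, with a rise in 1 gene and a fall in another. Ppp2r3a had 425.1 and 464.6 in stressed rats and 381.3 and 351.5 in controls at 1395410_at (log2 fold change 0.28, SE 0.08, adjusted p = 0.0478). This call was lost in each fit without 1 array (adjusted p 0.0523 to 0.212), and its second probe set had the log2 fold change 0.28 with an adjusted p of 0.186. Ppp2r3b had 633.2 and 692.6 in stressed rats and 772.9 and 837.8 in controls (log2 fold change -0.28, SE 0.07, adjusted p = 0.0253) and held only without stressed 2 (adjusted p 0.0219 to 0.152 over the 4 fits). Ppp2r3c stood at -0.15 (adjusted p = 0.365).

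The catalytic subunits of PP4, PP5 and PP6 gave 1 fall in 3 tested probe sets (33.3%, beside 11.8% of all tested probe sets). Ppp4c, the PP4 catalytic subunit, had 73.3 and 86.6 on the stressed arrays and 139.6 and 125.0 on the control arrays, a log2 fold change of -0.73 (SE 0.16, adjusted p = 0.0157). It passed the signal minimum only through the control arrays, where it was higher, so a difference in this direction was built into its selection. The call held without stressed 2 and was lost in the other 3 fits (adjusted p 0.0205 to 0.106). Ppp5c, a phosphatase that joins heat shock protein complexes with steroid receptors, had 272.9 and 282.6 in stressed rats and 283.3 and 291.5 in controls (log2 fold change -0.05, 95% interval -0.25 to 0.16, adjusted p = 0.720). Ppp6c, the PP6 catalytic subunit, had 364.1 and 372.5 in stressed rats and 415.3 and 366.7 in controls (log2 fold change -0.08, 95% interval -0.29 to 0.12, adjusted p = 0.526).

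Of 12 tested regulatory probe sets for PP4 and PP6 1 rose and none fell, with a median log2 fold change of 0.08. The called share was 8.33%, beside 23.8% of all tested probe sets. Ppp6r1, a PP6 regulatory subunit, had 944.4 and 971.4 in stressed rats and 715.0 and 791.0 in controls at 1388815_at (log2 fold change 0.35, SE 0.06, adjusted p = 0.00821). It was lost without control 1 (adjusted p = 0.0525, with 0.0196 the smallest over the 4 fits). Ppp4r3b, a PP4 regulatory subunit, had 479.8 and 497.1 in stressed rats and 431.3 and 428.0 in controls at 1389083_at and did not pass (log2 fold change 0.18, adjusted p = 0.0894). The other PP4 and PP6 regulatory probe sets ran from -0.32 to 0.33 on the log2 scale.

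Several genes were read by more than 1 probe set, and the probe sets did not always move together. For each of 12 genes with at least 2 tested probe sets the log2 signal of each dimmer probe set minus that of the brightest was compared between groups, a difference within an array that does not depend on scaling between arrays. Of 19 such pairs 5 differed, beside 26.6% of the 2363 pairs on the whole array (limma, adjusted p under 0.05). Fewer member pairs differed in each fit without 1 array, and the share of differing pairs over the whole array was not counted for those fits. For Ppp1r12a the brightest probe set, 1376662_at, had 1470.1 and 1532 in stressed rats and 1394 and 1326 in controls (log2 fold change 0.14, adjusted p = 0.0818). The probe set that fell, 1381850_at, moved by -0.99 relative to it (SE 0.15, adjusted p = 0.00226), and this difference passed in each fit without 1 array. A further probe set, 1383576_at, with 283.4 and 242.0 in stressed rats and 319.4 and 332.0 in controls, moved by -0.46 relative to the brightest (adjusted p = 0.0383).

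The other differing pairs were of Ppp2r5c, Ppp2r5e and Ppp6r1. For Ppp2r5c it was the brightest probe set that fell, while 1392498_at had 1037 and 1081 in stressed rats and 1105 and 1034 in controls, a relative difference of 0.28 (SE 0.08, adjusted p = 0.0380). For Ppp2r5e the probe set that fell moved by -0.51 relative to 1388965_at (adjusted p = 0.0176), which had 1834 and 1922 in stressed rats and 1659 and 1817 in controls. For Ppp6r1 the dimmer 1385758_at, with 224.6 and 275.5 in stressed rats and 289.1 and 278.9 in controls, moved by -0.54 relative to the probe set that rose (adjusted p = 0.0228). Both probe sets of Ppp1r2 fell, and their difference of -0.17 did not pass (adjusted p = 0.152). The part of the transcript that each probe set reads was not examined here.

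**Figure D3:**
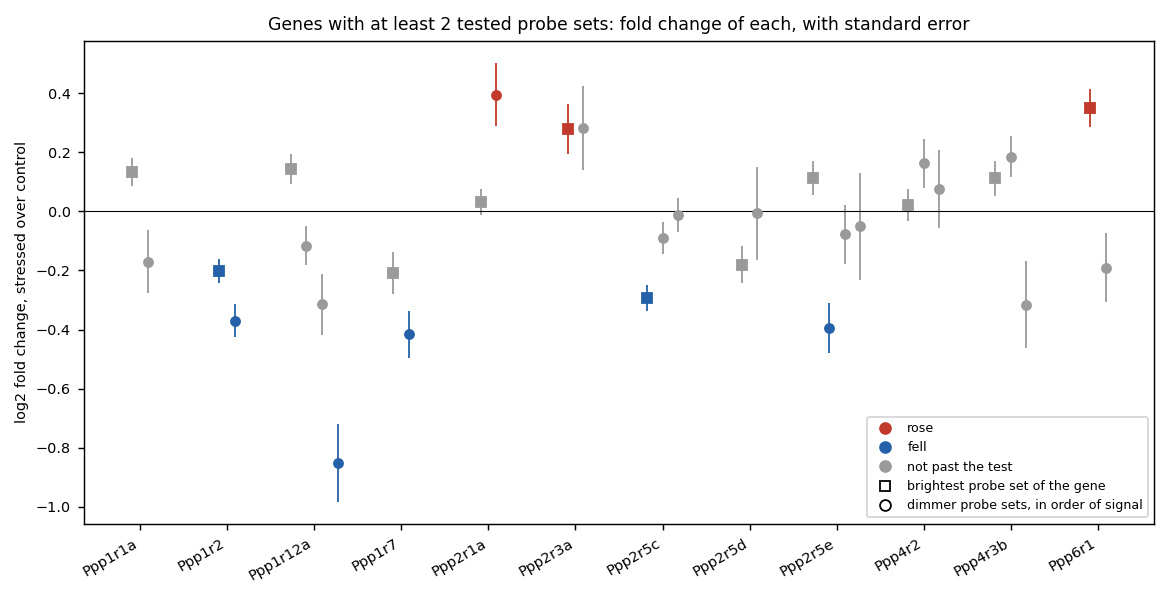
Log2 fold change of stressed over control rats (vertical axis) for the tested probe sets of the 12 genes with at least 2 of them; squares are the brightest probe set of a gene, circles the dimmer ones in order of signal, and lines standard errors. Red and blue mark calls, and for Ppp1r12a the square lies at 0.14 and the dimmest circle at -0.85.

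A total of 26 members, among them all probe sets of 9 genes, stayed below the signal minimum, and 19 of the 26 had all 4 signals under 50. The genes without a tested probe set were Ppp1r12b, Ppp1r13l, Ppp1r17, Ppp1r1c, Ppp1r3a, Ppp1r3b, Ppp1r42, Ppp1r9a and Ppp2r2c. Tested members near the minimum included Ppp4c, 1381850_at of Ppp1r12a and 1377262_at of Ppp4r3b, all lower in stressed rats. Also near it were 1375990_a_at of Ppp2r3a, 1370162_at of Ppp4r1 and the probe set of Ppp1r3f, all higher, and 1392558_at of Ppp2r5e, whose groups overlapped. The signals of 1377262_at were 93.8 and 102.7 in stressed rats and 128.1 and 116.5 in controls. Without any signal minimum, which set 31042 probe sets in the test, 3 dim members differed at least 2-fold with an unadjusted p under 0.05, beside 4.00% of all probe sets in that fit. Ppp1r9a, neurabin, the neuronal relative of spinophilin, had 13.8 and 20.2 on the stressed arrays and 57.1 and 63.7 on the control arrays. Both stressed arrays were lower, and its log2 fold change of -1.85 (SE 0.37) had an adjusted p of 0.0270 in that fit. Ppp4r1 at its dimmer probe set 1387858_at had 4.5 and 2.2 in stressed rats and 24.5 and 20.0 in controls (adjusted p = 0.0633), and Ppp1r12b had 28.1 and 24.2 in stressed rats and 4.4 and 13.3 in controls (adjusted p = 0.181). These 3 were chosen after their values were seen.

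**Figure D4:**
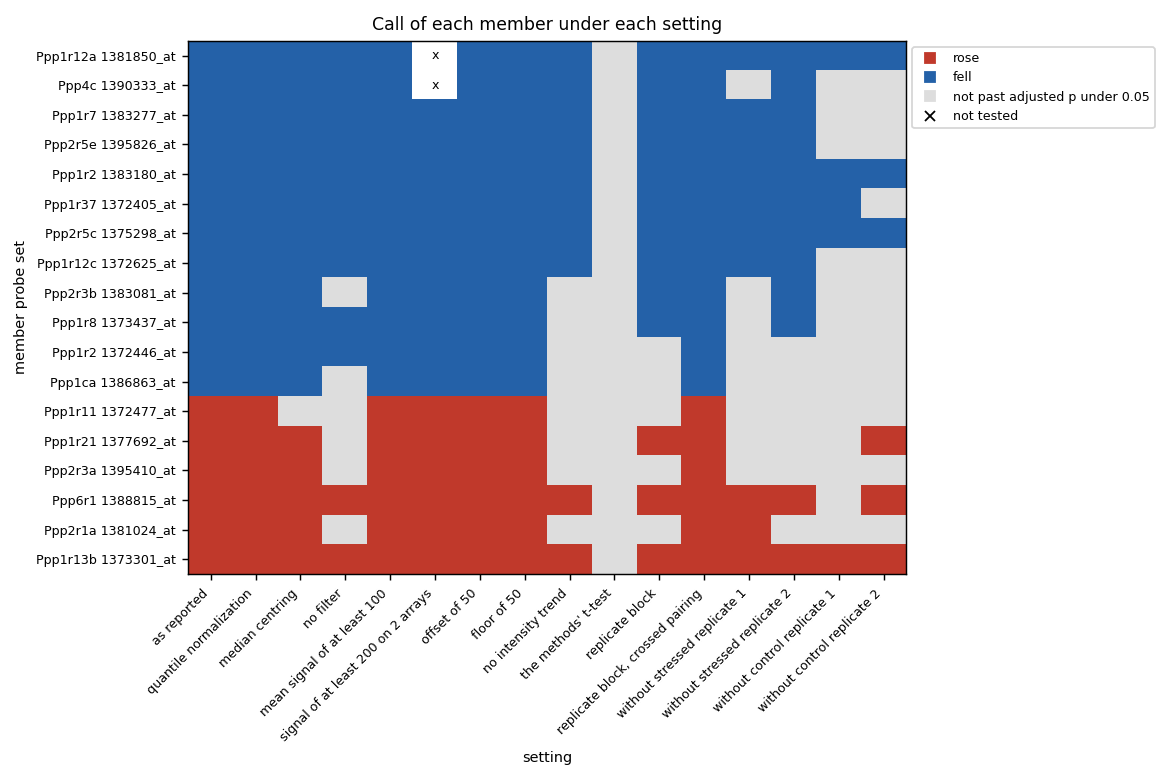
Call of each of the 18 called probe sets (vertical axis, rows) under the reported fit and 15 other settings (horizontal axis, columns); red is a rise, blue a fall, light grey not past an adjusted p of 0.05, and a cross not tested. The rows of Ppp1r13b, Ppp2r5c 1375298_at and Ppp1r2 1383180_at are coloured in each column but that of the methods' t-test, and the row of Ppp1r12a also lacks the column with a signal minimum of 200.

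Partners of PP1 and PP2A outside the symbol rule, such as striatins, PP2A inhibitor proteins and assembly factors, were counted from a list of 28 symbols, of which 24 genes had 31 tested probe sets. In stressed rats 3 rose and 6 fell, or 29.0% beside the 23.8% of all tested probe sets, and the median log2 fold change was -0.07. Ensa and Arpp19 encode related small proteins that, once phosphorylated by the Greatwall kinase, inhibit PP2A with a B55 subunit. Ensa had 528.2 and 475.0 on the stressed arrays and 1071 and 1029 on the control arrays at 1389912_at, a log2 fold change of -1.07 (SE 0.07, adjusted p = 8.29e-05) that held in each fit without 1 array. A second Ensa probe set, 1369702_at, had 495.9 and 545.2 in stressed rats and 660.7 and 735.7 in controls (log2 fold change -0.42, adjusted p = 0.00847), and was lost without control 2 (adjusted p = 0.0707, with 0.00853 the smallest over the 4 fits).

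The third Ensa probe set went against the others. At 1398898_at the signals were 473.2 and 510.9 in stressed rats and 416.1 and 434.6 in controls (log2 fold change 0.21, adjusted p = 0.0797), and relative to 1389912_at it moved by 1.28 (SE 0.12, adjusted p = 0.000271). Arpp19 fell at 1393008_at, with 534.6 and 456.5 in stressed rats and 692.8 and 759.8 in controls (log2 fold change -0.55, SE 0.09, adjusted p = 0.00469). This was lost without control 2 (adjusted p = 0.0522, with 0.00167 the smallest over the 4 fits), and its other probe sets stood at -0.20 and -0.29 and did not pass.

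Anp32a, a PP2A inhibitor, had 180.6 and 161.3 on the stressed arrays and 324.2 and 322.7 on the control arrays. Its log2 fold change of -0.92 (SE 0.10, adjusted p = 0.00102) held in each fit without 1 array. Tiprl, which binds PP2A-type catalytic subunits, had 244.2 and 283.4 in stressed rats and 423.2 and 338.7 in controls (log2 fold change -0.53, adjusted p = 0.0227), and was lost without stressed 1 and without control 1 (adjusted p 0.0191 to 0.130 over the 4 fits). Striatins are B-type subunits that place PP2A in the STRIPAK complex with kinases. Strn3 fell, with 908.0 and 912.0 in stressed rats and 1205 and 1089 in controls (log2 fold change -0.33, adjusted p = 0.00831), and was lost without control 1 (adjusted p = 0.0553, with 0.0210 the smallest over the 4 fits).

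Strn rose at both tested probe sets. At 1376235_at it had 815.3 and 816.8 in stressed rats and 672.6 and 594.9 in controls (log2 fold change 0.37, adjusted p = 0.00971), which was lost without control 2 (adjusted p 0.0184 to 0.0598 over the 4 fits). At 1392986_at it had 825.0 and 854.3 in stressed rats and 709.0 and 695.4 in controls (log2 fold change 0.26, adjusted p = 0.0147), which held only without stressed 1 (adjusted p 0.0328 to 0.0850 over the 4 fits). Akap11, an anchoring protein that binds PP1 and protein kinase A, had 1989.9 and 1984 in stressed rats and 1724 and 1776 in controls at 1390883_at (log2 fold change 0.18, adjusted p = 0.0233), and this was lost in each fit without 1 array (adjusted p 0.0766 to 0.116) and after median centring. The other tested Akap11 probe set, 1368427_at, had 621.3 and 621.8 in stressed rats and 624.5 and 618.4 in controls (log2 fold change 0.00, adjusted p = 0.998). Relative to 1390883_at it moved by -0.18, which did not pass the pair test (adjusted p = 0.144). The methyltransferase Lcmt1 and the PP2A activator Ptpa stood at 0.00 and -0.19 and did not pass (adjusted p = 0.956 and 0.10). Pabir1 and Bod1, both inhibitors of PP2A, stood at -0.16 and -0.05 and did not pass (adjusted p = 0.170 and 0.637).

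**Figure D5:**
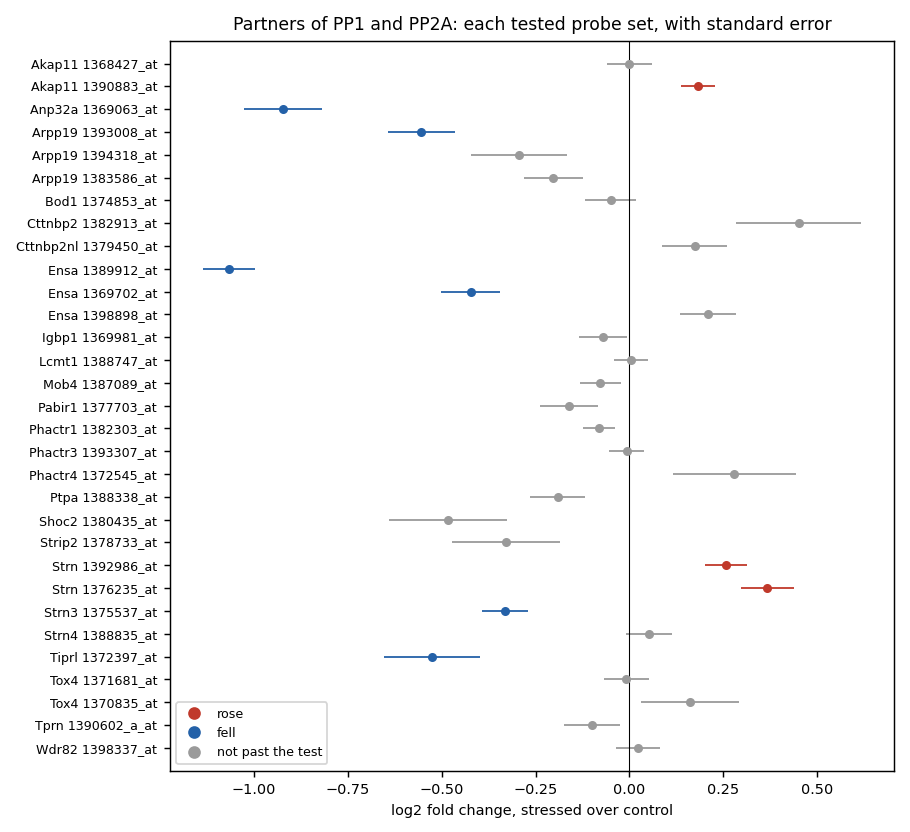
Log2 fold change of stressed over control rats (horizontal axis) for the 31 tested probe sets of PP1 and PP2A partners, labelled by gene and probe set; points are limma estimates and lines standard errors. Red marks the 3 probe sets that rose and blue the 6 that fell, and the 3 Ensa points lie at -1.07, -0.42 and 0.21.

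The 6 rises and 12 falls among 74 subunit probe sets (24.3%) were set beside the same counts for other phosphatases and for the kinases that phosphorylate tau. Calcineurin, the calcium-dependent phosphatase, and its regulators had 2 rises and 3 falls among 13 tested probe sets (38.5%), and tau kinases 7 rises and 8 falls among 34 (44.1%). Among the tau kinase falls, that of Csnk2a1 at 1387170_at passed the signal minimum only through the control arrays, as did that of Ppp4c among the subunits. The metal-dependent phosphatases, which do not share ancestry with PP1 and PP2A, had no rise and 1 fall among 12 (8.33%). Of all tested probe sets 23.8% were called. Differences between these lists were not tested.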

How the data were processed

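The authors deposited 1 linear signal intensity per probe set and array, made with GCOS 1.4 at a target value of 300; no genome build applies. All 4 arrays were used and no column of sample values was left out. Here 57 control probe sets were left out, zeros were set to 0.1, and log2 signals were compared with limma 3.58.1 (lmFit and eBayes with an intensity trend, R 4.3.3), with Benjamini-Hochberg adjustment over the 14791 probe sets that reached 100 on 2 or more arrays. Symbols came from the platform annotation (20826 probe sets with 1 symbol, 436 with several, 9780 with none), and 1 probe set whose several symbols included a member was left out. With 2 arrays against 2, the smallest two-sided exact permutation p for a single probe set is 0.333, so all p-values rest on the spread that limma shares between probe sets (7.74 moderated degrees of freedom).

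The members and lists were chosen with earlier results of these data known. Named were all catalytic subunits, called members with an absolute log2 fold change of at least 0.5, the 2 members with the smallest p in each role class, genes whose probe sets differed, and called partners; other members were named after their values were seen. The scripts were tested on simulated data. Alternatives covered scaling, the signal minimum, an offset or floor of 50, the trend, the methods' t-test, a replicate block and leaving out each array. Promoter windows of 300 bases came from RefSeq (GRCr8), and motifs were searched with Python 3.11.15.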

Additional observations from a re-analysis of the deposited data

How the results depend on the processing

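Of the 36 single probe sets followed over 15 alternatives, 423 values kept direction and side of the threshold, 107 kept direction but lost the call and 8 changed sign; at a signal minimum of 200, 1381850_at of Ppp1r12a and Ppp4c were not tested. Counts were 6 rises, 12 falls and 5 differing pairs. Without a signal minimum 2 members rose and 11 fell, beside 3.94% rises and 4.32% falls of all probe sets. In that fit 3 members passed 2-fold with unadjusted p under 0.05, beside 4.00% of all probe sets, and 3 pairs differed. Without the trend 2 rose and 8 fell, beside 6.76% and 7.75% of all tested probe sets. The methods' t-test gave 0 rises and 0 falls, beside 0.027% and 0.0947%. Without 1 array there were fewer rises, falls and differing pairs among the members, and smaller shares of rises and falls over the whole array. The cause was not tested. Other scalings kept the falls at 12, with 8 rises after quantile normalization and 5 after median centring. Over the whole array 12.3% rose and 12.1% fell after quantile normalization, and 10.5% rose and 12.9% fell after median centring.

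Same-numbered arrays had deviations that correlated at -0.11. With 2 arrays a group this value cannot tell whether the numbers pair the arrays. With the replicate number as a block 3 members rose, 10 fell and 2 pairs differed, beside 8.66% rises and 9.4% falls of all tested probe sets. The crossed pairing, chosen after seeing the data, gave 9 rises, 15 falls and 8 differing pairs, beside 14% rises and 13.3% falls. The whole-array share of differing pairs was not counted for the alternatives.

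All sign changes were in log2 fold changes near 0 that did not pass the test. Ppme1 was 0.0185 after quantile normalization. Without 1 array the values ran from -0.0416 to 0.0399 for Ppme1, -0.0621 to 0.0153 for Ppp1cc, -0.026 to 0.233 for Ppp2r1b, -0.1734 to 0.0062 for Ppp6c, -0.0621 to 0.0086 for Ppp2ca and -0.1811 to 0.0258 for Ppp2cb. Arrays give no counts, so precision is limited by their number, 2 a group.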
